A study of Mus musculus with 9 samples.

Results

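The effect of luteolin on arthritic mice was read from 6 RNA-seq libraries of spleen cells, 3 from mice labelled CIA and 3 from CIA mice given luteolin. The libraries were chosen by their labels alone, and they are 6 of the 9 in the series. The other 3 come from mice labelled control and serve here as a reference level. All 56860 genes of the count table were considered. Of these, 17069 had no counts in any library, 20443 were left out because their counts were low, and 19348 were tested. The labels describe every sample as CD4+ T cells of the spleen, extracted with TRIzol and sequenced as stranded mRNA libraries. They name neither the strain, age or sex of the mice, nor the dose, route or time of luteolin, and untreated CIA mice are not said to have received a vehicle. The labels also do not say whether the 3 libraries of a group are separate animals, pools or repeats. The p-values therefore describe only the spread among these samples, which may be technical. For each gene that spread is a single estimate shared by all 9 libraries, and so are the standard errors. It is not the spread of the CIA group alone, whose libraries varied most. The coefficient of variation between libraries was 0.2422 in CIA, 0.08829 in the libraries labelled control and 0.07164 with luteolin.

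Collagen-induced arthritis (CIA) is a mouse model of rheumatoid arthritis in which immunisation with collagen of cartilage leads to joint inflammation, with helper T cells, B cells and myeloid cells all taking part. Helper T cells of the Th17 type depend on IL-23, which myeloid cells make, and regulatory T cells restrain them. Luteolin is a plant flavone. In cultured cells flavones have been described to act on NF-kB, AP-1 and STAT3 signalling, on the antioxidant factor NRF2 and on the aryl hydrocarbon receptor. The series title names Th17 differentiation, and the comparison asks what changed in these cells when arthritic mice were treated.

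The libraries held 31851523 to 35670309 counts in CIA, 33436951 to 41815573 with luteolin and 31234177 to 40553934 in the libraries labelled control. Levels are given as CPM, counts scaled to library size, and changes as the log2 fold change of luteolin over CIA with its standard error. The 3 CIA libraries were far less alike than the treated ones, with a coefficient of variation between libraries of 0.2422 in CIA and 0.07164 with luteolin, and CIA library 3 stood apart (chi-square per degree of freedom over genes of 113.6 and 47.16 against the other two, and 32.24 between those). Cd4, the coreceptor that names the cells, was at 82.1, 151 and 150 CPM in CIA and at 106, 106 and 98.5 CPM with luteolin, so the treated libraries lay between those of CIA (log2 fold change -0.30 ± 0.21, adjusted p = 0.253; -0.55, past the threshold, without CIA library 1). In the libraries labelled control Cd4 had a mean of 2.92 CPM, which goes against their label, and values given for them below are levels only. Per kilobase of transcript, the neutrophil gene S100a9 had 7249 to 15975 RPKM over the 6 libraries compared, and the T cell receptor gene Cd3e had 5.75 to 11.8 RPKM. The neutrophil transcript thus stood far above that of T cells in all 6 libraries. In RNA from many cells, fewer cells of a type and less RNA per cell cannot be told apart.

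With luteolin 4462 genes rose and 4686 fell at an adjusted p of 0.05 (edgeR quasi-likelihood test), which is 23.1% and 24.2% of the genes tested and 47.3% together. The 3 treated libraries all lay above the CIA libraries for 28% of the genes tested and all below them for 27.7%, together 55.7%. With a minimum fold of 2 added, 2038 genes rose (10.5%) and 1620 fell (8.37%), together 18.9%. The share of a gene list that moved is read below against these backgrounds, and the median change over all tested genes was -0.04. Without CIA library 3, 4607 genes rose and 5027 fell. The lists of genes cover 47 pathways, cell programs and cell types, and the counts below are of members tested. Where a list is given with none higher or none lower, no member passed in that direction by edgeR at an unadjusted p of 0.05 or by DESeq2 either, except as stated. Several families named below have near-identical copies in the genome (Ifit, Oas, Gbp, p200 and Ly6 genes, class I heavy chains, granule proteins), and the value of a single copy is uncertain where the counting could split its reads.

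**Figure D1:**
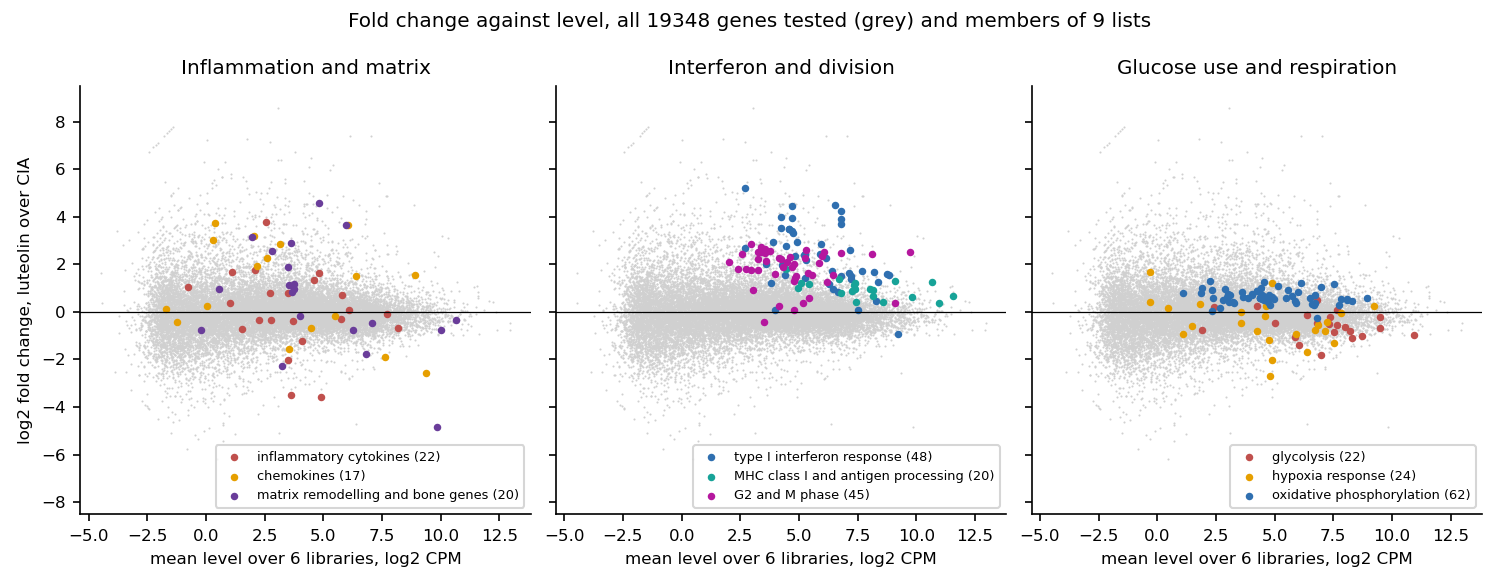
Log2 fold change of luteolin over CIA (vertical axis) against the mean level over the 6 libraries in log2 CPM (horizontal axis); grey points are all 19348 genes tested and coloured points the members of 9 lists. Interferon and G2 and M phase genes lie above 0 almost throughout, oxidative phosphorylation genes form a narrow band around 0.60, and cytokines and matrix genes spread to both sides.

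Markers of cells other than T cells differed between the groups in both directions, though some of their lists rose in shares near that of all genes. In the list of monocyte and macrophage markers 18 of 22 genes rose and 1 fell (2 without CIA library 1), with a median log2 fold change of 3.29. The scavenger receptor gene Marco was at 0.723, 0.293 and 0.761 CPM in CIA and at 45.6, 33.5 and 43.3 CPM with luteolin (6.11 ± 0.42, adjusted p = 1.6e-06). The adhesion gene Vcam1, which splenic macrophages carry, was at 0.612, 0.907 and 0.86 CPM against 37.1, 34.4 and 35.6 CPM (5.49 ± 0.20, adjusted p = 3.26e-08). For both genes the CIA libraries were all under 1 CPM and the treated ones all above 30. Mertk, a receptor for dying cells, rose from 0.199 ± 0.172 to 16.4 ± 0.905 CPM (SD, n = 3; log2 fold change 6.40 ± 0.34, or 7.31 without CIA library 3). Siglec1, a lectin of splenic macrophages, was at 0, 0 and 0.132 CPM in CIA and at 17.5, 17.5 and 14.8 CPM with luteolin. Csf1r, the receptor for the macrophage growth factor, rose from 75.2 ± 15.3 to 284 ± 32.4 CPM (1.92 ± 0.14), whereas the general myeloid lysozyme gene Lyz2 was at 1890 ± 818 and 2160 ± 150 CPM and did not pass (0.19 ± 0.25, adjusted p = 0.553; 0.55, past the threshold, without CIA library 3). The summed level of the macrophage list was 1775 to 3928 CPM in CIA and 3237 to 3781 CPM with luteolin, a sum in which Lyz2 is the largest term, so the groups overlapped there although most members did not.

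Of 16 genes of neutrophil precursors and their granules 11 rose and 3 fell, with a median of 2.28, and their summed level went from 990 to 1704 CPM in CIA to 4645 to 4737 CPM with luteolin. Mpo, the myeloperoxidase of primary granules (chromosome 11, 87684407 to 87695239, build mm39), was at 1.92, 1.26 and 1.46 CPM in CIA and at 249, 293 and 241 CPM with luteolin (7.39 ± 0.33, adjusted p = 1.1e-07). Elane, the neutrophil elastase gene, was at 0.334, 0.117 and 0.331 CPM against 29.2, 29.8 and 24.5 CPM (6.73 ± 0.30, adjusted p = 1.02e-07). These primary granule genes were under 2 CPM in every CIA library and between 24.5 and 293 CPM in the treated ones. Ngp, a protein of later granules, rose from 262 ± 54.5 to 2268 ± 28.7 CPM (3.11 ± 0.15) and lactoferrin, Ltf, from 291 ± 94.4 to 962 ± 50.9 CPM (1.73 ± 0.20). Of 18 genes of mature neutrophils 4 rose and 8 fell, with a median of -0.47. Changes ran from -2.48 to 1.57, with 2 members at least 2-fold higher and 4 at least 2-fold lower. Their summed level was 7491 to 12551 CPM in CIA and 6940 to 7591 CPM with luteolin, so the groups overlapped. Among the fallers Retnlg went from 50.9 ± 11.5 to 9.14 ± 1.49 CPM (-2.48 ± 0.22). The collagenase gene Mmp8 fell from 1304 ± 292 to 762 ± 17.5 CPM (-0.77 ± 0.18) and S100a9 from 6744 ± 1806 to 3971 ± 275 CPM (-0.76 ± 0.17). Ly6g, the surface marker of mature neutrophils that stands in the precursor list, fell by 2.45 (SE 0.26).

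Basophil and mast cell markers rose, 8 of 9 with none lower, and their sum was 84 to 157 CPM in CIA and 271 to 295 CPM with luteolin, with Mcpt4 at 0 in all 6 libraries and Cma1 at 0 in all CIA libraries. The basophil protease gene Mcpt8 rose from 1.38 ± 0.286 to 15.9 ± 3.14 CPM (3.52 ± 0.20). Plasma cell markers were higher in 5 of 11 cases and lower in 1 (5 and 3 without CIA library 3), with Sdc1, the plasma cell surface proteoglycan, up from 4.11 ± 1.85 to 23.8 ± 1.46 CPM and Jchain, which links antibody polymers, from 50 ± 11.7 to 125 ± 9.93 CPM. The counts for B cell markers depended on single libraries. Their summed level was 636 to 3340 CPM in CIA and 888 to 1088 CPM with luteolin, and 6 of 18 members fell and none rose (3 fell in a fit of the 6 libraries alone and 17 without a filter on low counts). Without CIA library 1 there were 3 that fell, without CIA library 3 all 18, and without treated library 1 or 3 there were 2. Cr2, the complement receptor of B cells, was at 215, 116 and 26.3 CPM in CIA and at 15.5, 19.6 and 15.1 CPM with luteolin (-2.83 ± 0.56, adjusted p = 0.00204; -2.10 without CIA library 1). Erythroid markers fell in 8 of 16 cases and rose in 3 (1 rose without CIA library 2, and 4 of 9 fell with a filter of 1 CPM). Changes ran from -3.66 to 1.26, with 8 members at least 2-fold lower and 2 at least 2-fold higher. Their summed level was 152 to 189 CPM in CIA and 135 to 145 CPM with luteolin. Among the fallers the carbonic anhydrase gene Car2 went from 28.4 ± 10.8 to 7.02 ± 1.09 CPM (-2.02 ± 0.33).

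Dendritic cell markers rose in 6 of 17 cases and fell in 1, but without CIA library 3 there were 6 and 8, with a median of -0.44 in place of -0.08; without treated library 2 none fell. Flt3, the growth factor receptor of their precursors, rose from 3.42 ± 0.725 to 17.1 ± 1.42 CPM (2.32 ± 0.15), and Itgax, which encodes CD11c, was lower (-0.82 ± 0.23, adjusted p = 0.0146; -0.74 and no longer past the threshold without treated library 2). Of 14 cytotoxic and NK cell markers 3 rose and 5 fell. The granzyme gene Gzmk fell from 7.36 to 2.72 CPM on average (-1.43 ± 0.23), while Nkg7, a cytotoxic granule gene, rose from 0.268 ± 0.0718 to 1.45 ± 0.268 CPM (2.42 ± 0.31). Megakaryocyte and platelet markers rose in 4 of 16 cases and fell in 2 (6 and 0 without CIA library 3, none lower without CIA library 2 or any one treated library, and 1 lower in a fit of the 6 libraries alone). Pf4, the platelet factor, rose from 4.06 to 24.6 CPM (2.61 ± 0.30). Stromal and endothelial markers rose in 2 of 9 cases (4 without CIA library 3) and fell in 3, with a median of 0.81. Their changes ran from -2.73 to 4.18, and the lowest was the smooth muscle actin gene Acta2, down from 32.3 to 4.86 CPM (-2.73 ± 0.26). In the cytotoxic, platelet and stromal lists 21.4%, 25% and 22.2% of members rose, near the 23.1% of all genes tested. The shares that fell were 35.7%, 12.5% and 33.3%, beside 24.2%. The part that differences in cell markers play in the results that follow was not tested.

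**Figure D2:**
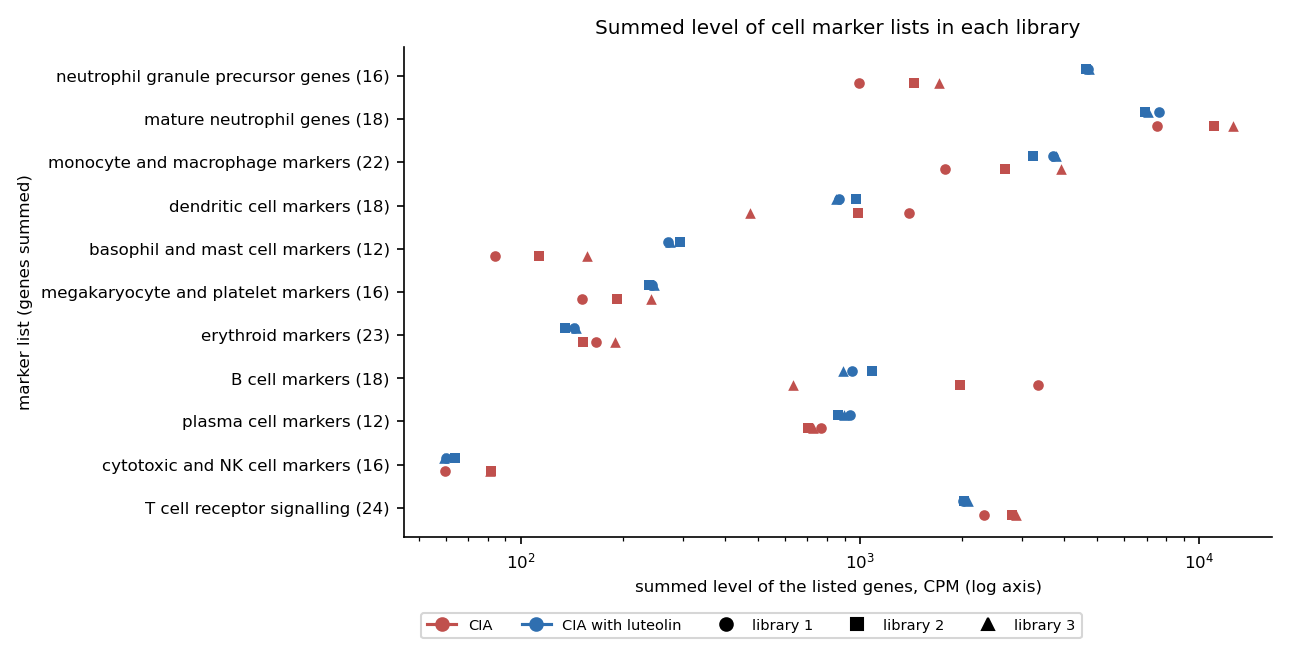
Summed level in CPM (horizontal log axis) of the genes of 11 lists (vertical axis, number of genes in brackets) in each of the 6 libraries; red is CIA, blue is CIA with luteolin, and the symbol gives the library number. Precursor granule and basophil genes are higher in every treated library than in any CIA library, T cell receptor signalling genes are lower, and the treated libraries lie close together while CIA libraries spread, most for B cell markers at 636 to 3340 CPM.

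Inflammatory cytokine genes did not move as 1 group. Of 22 tested, 7 rose, 5 fell and 10 did not pass, with a median of 0, and without CIA library 1 there were 7 and 10. The shares of 31.8% higher and 22.7% lower lie near the 23.1% and 24.2% of all genes tested. The subunits of the IL-12 family, which direct helper T cell fates, moved in opposite directions. Il23a, the subunit particular to IL-23 (chromosome 10, 128132008 to 128134621, mm39, minus strand), was at 10.1, 25.8 and 32.2 CPM in CIA and at 1.66, 2.34 and 1.99 CPM with luteolin (log2 fold change -3.50 ± 0.38, adjusted p = 4.39e-05). Il12a, the subunit particular to IL-12, was at 14.8, 15.5 and 11.1 CPM against 36.9, 30.4 and 36.5 CPM (1.33 ± 0.13, adjusted p = 2.39e-05). Il12b, the subunit that IL-12 and IL-23 share, was at 0.417, 1.11 and 0.926 CPM against 10.4, 10.1 and 12.7 CPM (3.76 ± 0.26, adjusted p = 1.87e-06). None of the 3 subunits overlapped between the groups: the IL-23 subunit was low in all treated libraries, and both subunits of IL-12 were high. Il27, a related subunit, rose from 1.95 ± 0.524 to 6.6 ± 0.128 CPM (1.76 ± 0.25), and Ebi3, its partner, did not pass (-0.35 ± 0.26, adjusted p = 0.298; -0.65, past the threshold, without CIA library 1).

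The colony-stimulating factors moved apart as well. Csf3, which drives neutrophil production and release (chromosome 11, 98592089 to 98594455, mm39), was at 29.4, 39.8 and 96.2 CPM in CIA and at 5.15, 2.79 and 6.12 CPM with luteolin (-3.56 ± 0.45, adjusted p = 0.000124; -2.90 without CIA library 3). Csf1, which sustains macrophages, was at 11.3, 13 and 17.2 CPM against 41.6, 43.7 and 43.3 CPM (1.63 ± 0.14, adjusted p = 8.88e-06). Treated libraries were thus all below CIA for Csf3 and all above for Csf1, while in the libraries labelled control the means were 5.36 and 33.6 CPM. The anti-inflammatory cytokine gene Il10 fell from 23.7 ± 9.71 to 10.1 ± 0.62 CPM (-1.22 ± 0.24, adjusted p = 0.00212). Il6 rose from 4.83 ± 0.653 to 8.4 ± 1.01 CPM (0.80 ± 0.19, adjusted p = 0.005). Il1b was at 249, 342 and 484 CPM in CIA and 243, 168 and 253 CPM with luteolin, so the groups overlapped, and it was called lower (-0.70 ± 0.22, adjusted p = 0.0235) but not without treated library 2 (-0.53) or in a fit of the 6 libraries alone (-0.66). Tnf was at 58.4 ± 22.9 and 47.9 ± 6.9 CPM and did not pass (-0.29 ± 0.22, adjusted p = 0.316; -0.50, past the threshold, without CIA library 1). Il1rn, the natural inhibitor of IL-1, was at 219 ± 70.4 and 206 ± 24.6 CPM (adjusted p = 0.737).

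Among 17 chemokine genes 9 rose and 3 fell, with a median of 1.52. Cxcl2, which recruits neutrophils, was at 608, 936 and 1815 CPM in CIA and at 210, 151 and 214 CPM with luteolin (-2.55 ± 0.32, adjusted p = 0.000127). Its level in the libraries labelled control had a mean of 267 CPM. Ccl3 and Ccl4, which attract monocytes and activated T cells, fell from 308 ± 166 to 81.7 ± 11.1 CPM (-1.92 ± 0.30, with 34.7% of exonic bases of Ccl3 shared with another gene) and from 17.1 ± 9.91 to 5.79 ± 1.57 CPM (-1.56 ± 0.35). Cxcl16, a ligand for activated T cells that macrophages carry, was at 9.53, 7.69 and 12.4 CPM against 122, 117 and 133 CPM (3.65 ± 0.16, adjusted p = 9.24e-08). The interferon-induced chemokines rose too, Cxcl10 from 0.797 ± 0.229 to 7.41 ± 1.16 CPM (3.21 ± 0.28) and Cxcl9 from 0.184 ± 0.0771 to 2.45 ± 0.637 CPM (3.73 ± 0.60). Ccl2, which attracts monocytes, rose from 2.18 ± 1.45 to 15.6 ± 0.784 CPM (2.86 ± 0.35; 3.50 without CIA library 3), and Ccl22, which attracts regulatory T cells, from 2.08 ± 0.655 to 10 ± 0.445 CPM (2.25 ± 0.18). Cxcl2 was the chemokine with the largest fall, and the 200 bases before its start hold a pair of NF-kB sites, searched on both strands as GGG, any 2 bases, then TTTCC, and shown in capitals (RefSeq, GRCm38.p6, chr5:90903699-90903898, plus strand):
Cxcl2: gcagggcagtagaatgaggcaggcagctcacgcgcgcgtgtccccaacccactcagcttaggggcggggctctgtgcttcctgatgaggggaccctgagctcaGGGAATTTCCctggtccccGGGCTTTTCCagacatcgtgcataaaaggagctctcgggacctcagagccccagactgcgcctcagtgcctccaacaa
The sites begin 97 and 78 bases before the start and do not overlap. In windows from 250 bases before to 50 after the start, the motif was in 4 of 11 windows of the chemokine list (36.4%), in 4 of 19 of the inflammatory cytokines (21.1%), in 1.77% of windows of tested genes and in 1.63% of all 32851 windows. Among tested genes it was in 1.99% of windows of genes that rose and 1.77% of those that fell.

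Chemokine receptors followed no single direction, with 3 of 17 higher and 5 lower. These shares, 17.6% and 29.4%, lie near the 23.1% and 24.2% of all genes tested. Cx3cr1, a receptor of monocytes, rose from 2.39 ± 0.149 to 16.6 ± 1.17 CPM (2.80 ± 0.15) and Ccr2, which releases monocytes from marrow, from 11 ± 3.24 to 41.2 ± 7.08 CPM (1.91 ± 0.21). Cxcr4, which retains leukocytes in marrow and lymphoid tissue, fell from 103 ± 12.3 to 47.7 ± 4.61 CPM (-1.11 ± 0.12). Of 22 integrin and adhesion genes 9 rose and 8 fell (4 fell without treated library 1 or 2, and 5 in a fit of the 6 libraries alone). The integrin gene Itga4, whose product lets lymphocytes enter inflamed tissue, fell from 857 ± 72.8 to 493 ± 36.6 CPM (-0.80 ± 0.08), while Itgb2, the shared chain of leukocyte integrins, rose from 404 ± 59.1 to 642 ± 29.7 CPM (0.67 ± 0.10).

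Genes of the eicosanoid pathway, which turns arachidonic acid into prostaglandins and leukotrienes, rose in 8 of 20 cases and fell in 2. Ptgs2, the inducible cyclooxygenase COX-2, was at 21.2, 43 and 118 CPM in CIA and at 8.88, 6.47 and 7.48 CPM with luteolin (-2.99 ± 0.50, adjusted p = 0.000729; -2.08 without CIA library 3). Ptgs1, the constitutive form, was at 1.28, 2.37 and 4.47 CPM against 11.9, 14.7 and 12.5 CPM (2.28 ± 0.34, adjusted p = 0.000358). All treated libraries were below CIA for the inducible enzyme and above it for the constitutive one. Downstream enzymes that rose included the leukotriene hydrolase gene Lta4h from 35 ± 0.831 to 109 ± 2.71 CPM (1.64 ± 0.07), the thromboxane synthase gene Tbxas1 from 3.92 ± 0.955 to 21.6 ± 1 CPM (2.46 ± 0.17) and Alox15, a lipoxygenase of resolving inflammation, from 0.24 ± 0.0495 to 3.28 ± 0.67 CPM (3.76 ± 0.48).

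Of 20 matrix and bone genes 10 rose and 5 fell. Spp1, osteopontin, an adhesive cytokine of inflamed joints and bone (chromosome 5, 104582984 to 104588916, mm39), was at 663, 1066 and 3602 CPM in CIA and at 72, 34.8 and 79 CPM with luteolin (-4.84 ± 0.63, adjusted p = 0.000143; -3.81 without CIA library 3). Tnfsf11, which encodes RANKL, the factor that drives osteoclast formation and is counted among the cytokines, was at 8.9, 15.2 and 30.1 CPM against 4.7, 3.52 and 4.99 CPM (-2.03 ± 0.37, adjusted p = 0.00132). Its receptor gene Tnfrsf11a was at 1, 0.468 and 0.926 CPM against 7.05, 6.8 and 7.36 CPM (3.14 ± 0.24, adjusted p = 3.28e-06). This ligand and its receptor moved in opposite directions, with no overlap between groups in either. The gelatinase gene Mmp9 fell from 173 ± 45.1 to 50.8 ± 1.9 CPM (-1.77 ± 0.17) and the collagenase gene Mmp13 from 15.7 ± 11.3 to 3.22 ± 1.17 CPM (-2.28 ± 0.51; -1.60 without CIA library 3). The membrane-bound protease gene Mmp14 rose from 9.15 ± 2.72 to 116 ± 12.1 CPM (3.67 ± 0.21), fibronectin, Fn1, from 2.22 ± 1.12 to 53.3 ± 6.31 CPM (4.60 ± 0.31), and the osteoclast and macrophage protease gene Ctsk from 2.91 ± 0.942 to 21.6 ± 3.11 CPM (2.90 ± 0.21). Macrophage markers rose in the same libraries (18 of 22), and their part in these 3 rises was not tested.

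**Figure D3:**
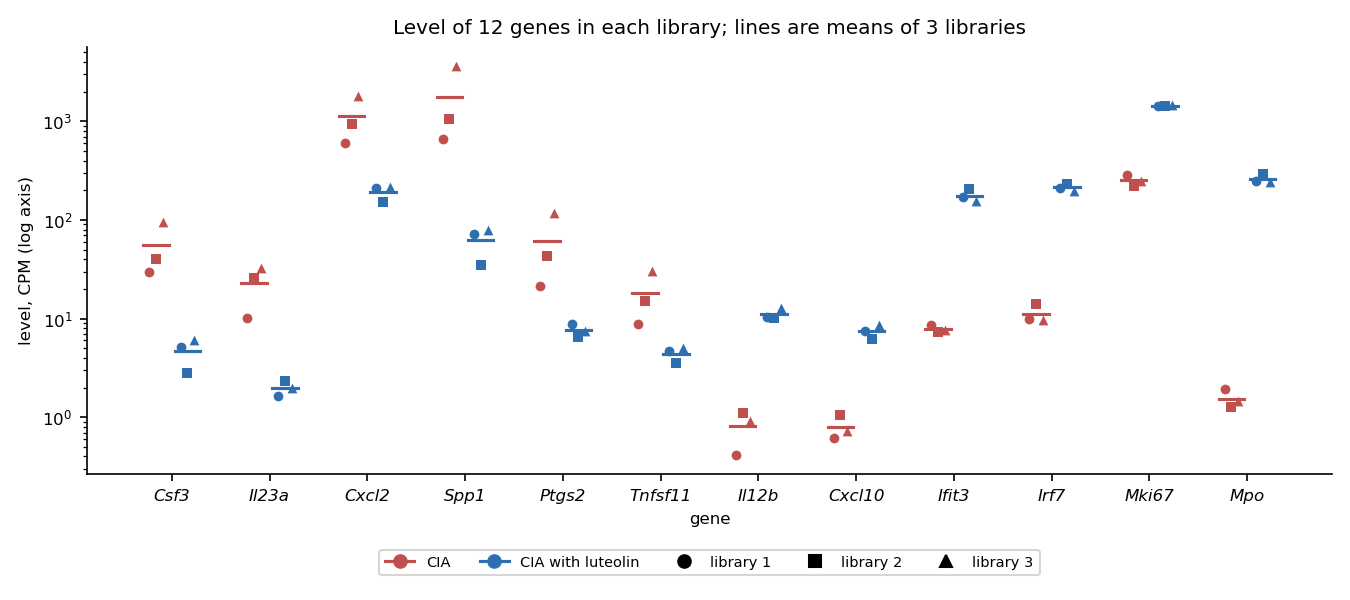
Level of 12 genes (horizontal axis) in each of the 6 libraries in CPM (vertical log axis); red is CIA, blue is CIA with luteolin, the symbol gives the library number and short lines are means of 3 libraries. The 6 genes on the left, Csf3 to Tnfsf11, are lower with luteolin, and the 6 on the right, Il12b to Mpo, are higher. The groups do not overlap for any of the 12, but several were named by a rule that requires this. Of all genes tested 55.7% do not overlap.

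In the Th17 program 3 of 20 tested genes rose and 5 fell, shares of 15% and 25% beside backgrounds of 23.1% and 24.2%, with a median of -0.18, and without CIA library 3 there were 7 and 7 (0.03), and without a filter 9 fell. Among the 5 that fell were Il6st, the signalling chain for IL-6, from 107 to 78.9 CPM (-0.44 ± 0.10), and Tgfbr2 from 162 to 101 CPM (-0.68 ± 0.14). Ahr fell from 12.2 to 8.95 CPM (-0.45 ± 0.10) and the AP-1 factor Batf from 105 to 73.1 CPM (-0.53 ± 0.14). Il22, a cytokine of Th17 cells, was at 0.445, 0.234 and 1.12 CPM against 1.61, 2.11 and 1.93 CPM (1.67 ± 0.44, adjusted p = 0.00943; 2.45 without CIA library 3). Il17a was at 0 in all CIA libraries and at 0.0475, 0.0503 and 0 CPM with luteolin, and Il17f was at 0.111, 0.0585 and 0.132 CPM against 0.617, 0.227 and 0.713 CPM. Both were below the filter on low counts, and in the fit without it Il17f was called higher (adjusted p = 0.00537) and Il17a was not (adjusted p = 0.407).

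Among regulatory T cell genes 11 of 21 rose and 4 fell, with a median of 0.35 (9 and 7 without CIA library 1, 7 and 3 without treated library 1). Foxp3, the lineage factor, was at 25.6, 32.1 and 36.3 CPM in CIA and at 73.1, 68.2 and 74.4 CPM with luteolin, with no overlap (1.20 ± 0.12, adjusted p = 2.95e-05). Other genes share 31.5% of the exonic bases of Foxp3. The IL-2 receptor chain gene Il2ra was at 54.8, 43.7 and 65.2 CPM against 89.8, 84.4 and 96.8 CPM (0.73 ± 0.14, adjusted p = 0.00204). Itgae, the CD103 integrin of tissue-homing T cells and some dendritic cells, rose from 2.91 ± 0.51 to 14.8 ± 1.41 CPM (2.35 ± 0.16) and the costimulatory receptor gene Tnfrsf9 from 13.7 ± 3.15 to 33.2 ± 2.57 CPM (1.28 ± 0.15). Icos, another costimulatory receptor, fell from 50.8 ± 30.6 to 16.9 ± 1.62 CPM (-1.58 ± 0.35). Members therefore did not move together, and Ctla4, the inhibitory receptor, was at 69.6 ± 17.6 and 57.3 ± 3.97 CPM and did not pass (-0.28 ± 0.16; -0.47, past the threshold, without CIA library 1).

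Of 13 follicular helper genes 1 rose and 4 fell, with a median of -0.21 (6 fell without CIA library 3, with a median of -0.52). Bcl6, their lineage factor, which B cells and myeloid cells also use, was at 70.6, 80.3 and 101 CPM in CIA and at 23.7, 24.1 and 26.3 CPM with luteolin (-1.77 ± 0.12, adjusted p = 1.99e-06), and its mean in the libraries labelled control was 24.6 CPM. Th1 genes rose in 7 of 17 cases and fell in 6. Tbx21, the Th1 factor, fell from 4.88 ± 0.452 to 2.1 ± 0.279 CPM (-1.21 ± 0.19). Of 7 Th2 genes 2 rose and 1 fell; leaving out single libraries gave 0 to 2 higher (0 without treated library 3, 1 without CIA library 2 or treated library 1 or 2) and 2 lower without CIA library 1. The faller was Il10. The shares of the Th2 list were 28.6% higher and 14.3% lower, beside 23.1% and 24.2% of all genes tested.

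Genes of T cell receptor signalling fell in 12 of 24 cases and rose in 2, with a median of -0.41. Zap70, the kinase that binds the engaged receptor, was at 34, 65.6 and 84.9 CPM in CIA and at 24.3, 23.4 and 25.2 CPM with luteolin (-1.34 ± 0.25, adjusted p = 0.00148). Cd28, the main costimulatory receptor, was at 27.2, 49.6 and 76 CPM against 18, 16.7 and 19.6 CPM (-1.49 ± 0.29, adjusted p = 0.00173). All treated libraries were below all CIA libraries for both, whereas for Cd4, as given above, the groups overlapped. Bcl10, which links the receptor to NF-kB, fell from 121 to 51.9 CPM (-1.22 ± 0.14), the kinase gene Fyn from 200 to 108 CPM (-0.89 ± 0.11) and Nfatc1, a factor activated by calcium, from 96.6 to 56.7 CPM (-0.77 ± 0.12). The summed level of the list was 2320 to 2891 CPM in CIA and 2018 to 2076 CPM with luteolin. Among 18 genes of naive T cells and homing 8 fell and 1 rose (2 without CIA library 1), with Foxo1, a factor of quiescent T cells, down from 40.3 to 19.9 CPM (-1.02 ± 0.16) and Ets1 from 373 to 228 CPM (-0.71 ± 0.10). The gene that rose, Igfbp4, was at 4, 4.04 and 4.86 CPM in CIA and at 93.8, 98.4 and 85.4 CPM with luteolin (4.43 ± 0.13, adjusted p = 8.72e-09). It encodes a binding protein for insulin-like growth factors.

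Nearly all genes of the type I interferon response rose. Interferon-stimulated genes encode antiviral effectors and sensors and are switched on through a promoter element bound by a complex of STAT factors and IRF9. Of 48 tested members 45 rose and 1 fell, 93.8% beside a background of 23.1%, with a median of 2.31, and their summed level was 2781 to 3056 CPM in CIA, 6936 to 7503 CPM with luteolin and 5427 to 5662 CPM in the libraries labelled control. Ifit1, which binds foreign RNA, was at 2.28, 2.4 and 2.12 CPM in CIA and at 46.8, 54.6 and 46.5 CPM with luteolin (4.44 ± 0.12, adjusted p = 8.72e-09). Irf7, the factor that amplifies interferon production, was at 9.95, 14 and 9.76 CPM against 210, 232 and 198 CPM (4.24 ± 0.15, adjusted p = 2.68e-08). Both were at 14 CPM or less in every CIA library and at 46.5 CPM or more in every treated one. Oasl2, an antiviral effector, rose from 13.9 ± 1.11 to 210 ± 15.9 CPM (3.92 ± 0.10), Isg15, a ubiquitin-like modifier, from 3.95 ± 1.23 to 44 ± 3.88 CPM (3.49 ± 0.20), and Usp18, which removes that modifier and limits the response, from 12.2 ± 2.01 to 64.6 ± 2.81 CPM (2.41 ± 0.12). The single member that fell was Samd9l, a restriction factor, at 578, 798 and 993 CPM in CIA and 406, 436 and 411 CPM with luteolin (-0.92 ± 0.15). Ifi27 and Trim25 did not pass (adjusted p = 0.681 and 0.216).

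The promoters of 3 of these genes are shown because each holds the interferon-stimulated response element core within 200 bases before the start. The motif was searched on both strands as GAAA, any 2 bases, then GAAA, so a site on the opposite strand reads TTTC, any 2 bases, then TTTC, and capitals mark the sites (RefSeq, GRCm38.p6). Ifit1 lies at chr19:34640689-34640888 (plus strand), Ifit3 at chr19:34583329-34583528 (plus strand) and Oas1a at chr5:120907526-120907725 (minus strand).
Ifit1: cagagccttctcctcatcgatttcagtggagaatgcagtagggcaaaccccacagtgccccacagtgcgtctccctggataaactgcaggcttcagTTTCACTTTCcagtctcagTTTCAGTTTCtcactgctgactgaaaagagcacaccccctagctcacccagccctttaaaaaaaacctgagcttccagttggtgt
Ifit3: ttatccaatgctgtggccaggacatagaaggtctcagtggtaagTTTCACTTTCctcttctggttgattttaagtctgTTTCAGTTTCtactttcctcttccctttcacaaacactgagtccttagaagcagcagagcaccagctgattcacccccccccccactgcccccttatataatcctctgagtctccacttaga
Oas1a: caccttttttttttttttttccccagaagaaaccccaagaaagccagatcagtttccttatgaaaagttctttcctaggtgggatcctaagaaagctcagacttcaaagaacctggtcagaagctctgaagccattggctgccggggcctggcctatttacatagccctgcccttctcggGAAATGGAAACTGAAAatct
Ifit1 and Ifit3 each carry 2 sites on the opposite strand, and Oas1a 2 overlapping sites on the gene's own strand that begin 20 and 14 bases before the start. Over windows from 250 bases before to 50 after a start, the motif was in 19 of 41 windows of the interferon list (46.3%) and 11 of 17 windows of the interferon-gamma list (64.7%), against 3.23% of windows of tested genes and 3.44% of all 32851 windows. Among tested genes it was in 5.25% of windows of genes that rose, 7.07% of those that rose at least 2-fold and 2.2% of those that fell. A match is a run of letters and not a site shown to be bound.

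Targets of interferon gamma, many of them GTPases that attack intracellular microbes, rose in 22 of 24 cases with none lower and a median of 1.32 (22 and 1 without CIA library 3). Gbp5, a guanylate-binding protein, rose from 19.5 to 178 CPM (3.19 ± 0.18), Irgm1, an immunity-related GTPase, from 44.2 ± 3.06 to 137 ± 3.38 CPM (1.63 ± 0.08) and Irf1, the factor induced by interferon gamma, from 85.2 ± 2.21 to 197 ± 10.2 CPM (1.21 ± 0.07). Nos2, the inducible nitric oxide synthase, was at 93.8 ± 49.3 and 75.2 ± 27 CPM and did not pass (-0.32 ± 0.38), and neither did Ciita, the switch for MHC class II (-0.15 ± 0.34; -0.53, past the threshold, without CIA library 3). All 20 genes of MHC class I and antigen processing rose, with a median of 0.96. B2m, the light chain of class I molecules, was at 155, 174 and 200 CPM in CIA and at 363, 331 and 332 CPM with luteolin (0.96 ± 0.09, adjusted p = 2.09e-05). The class I heavy chain gene H2-K1 was at 2254, 2440 and 2390 CPM against 3570, 3994 and 3790 CPM (0.68 ± 0.08, adjusted p = 6.61e-05). Both lay higher in every treated library. Of the genes that supply peptides, the immunoproteasome subunit gene Psmb10 rose from 9.76 to 34.4 CPM (1.82 ± 0.11), the proteasome activator gene Psme1 from 314 to 779 CPM (1.31 ± 0.07) and the peptide transporter gene Tap1 from 57.9 ± 11.1 to 151 ± 10.5 CPM (1.38 ± 0.13). Monocyte and macrophage markers rose in the same libraries (18 of 22), and their part in the interferon and class I results was not tested.

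Most genes of cell division rose as well. In the list of G2 and M phase 42 of 45 genes rose and none fell (42 and 1 without CIA library 1), 93.3% beside 23.1% of all genes, with a median of 2.08, and the summed level was 1285 to 1457 CPM in CIA, 4219 to 4471 CPM with luteolin and 2714 to 2836 CPM in the libraries labelled control. Mki67, which coats chromosomes in dividing cells (chromosome 7, 135291513 to 135318090, mm39, minus strand), was at 288, 222 and 248 CPM in CIA and at 1443, 1432 and 1462 CPM with luteolin (2.52 ± 0.09, adjusted p = 3.16e-08). Ccnb1, the cyclin that starts mitosis, was at 2.75, 2.69 and 2.98 CPM against 15.2, 17 and 16 CPM (2.52 ± 0.13, adjusted p = 2.65e-07). All treated libraries were above all CIA libraries for both, and the treated libraries were close to each other. The spindle gene Tpx2 rose from 20.7 to 107 CPM (2.37 ± 0.11) and the topoisomerase gene Top2a from 85.7 ± 23 to 467 ± 29.9 CPM (2.44 ± 0.16). Promoters of 2 members are shown because they hold the CHR element, TTTGAA, through which many genes of these phases are repressed in resting cells; it was searched on both strands and is in capitals (RefSeq, GRCm38.p6). Mki67 lies at chr7:135716380-135716579 (minus strand) and Prc1, a gene of the midzone of the spindle, at chr7:80294276-80294475 (plus strand).
Mki67: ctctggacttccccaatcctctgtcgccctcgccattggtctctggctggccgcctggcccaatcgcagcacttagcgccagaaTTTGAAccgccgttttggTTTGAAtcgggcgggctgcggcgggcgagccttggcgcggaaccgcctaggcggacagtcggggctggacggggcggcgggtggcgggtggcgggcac
Prc1: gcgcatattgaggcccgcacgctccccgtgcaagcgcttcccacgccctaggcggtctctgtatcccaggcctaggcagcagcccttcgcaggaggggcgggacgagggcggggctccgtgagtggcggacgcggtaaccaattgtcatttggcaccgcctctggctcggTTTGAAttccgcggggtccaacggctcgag
The element was in 30 of 40 windows of the G2 and M phase list (75%), in 5 of 43 windows of the S phase list (11.6%), in 12.9% of windows of tested genes and in 17.9% of all windows. It was in 15.4% of windows of tested genes that rose and 10.8% of those that fell.

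S phase and replication genes rose in 33 of 46 cases and fell in 2, with a median of 0.71 (4 fell without CIA library 3 or with upper-quartile scaling, and 1 without treated library 1 or 3). Rrm2, which makes DNA building blocks, was at 4.7, 3.77 and 3.71 CPM in CIA and at 19.6, 22.2 and 18.6 CPM with luteolin (2.31 ± 0.13, adjusted p = 4.07e-07). The helicase subunit gene Mcm5 was at 31.9, 26.1 and 15.1 CPM against 67.4, 77.9 and 69 CPM (1.55 ± 0.21, adjusted p = 0.000185), and CIA library 3 was the lowest. Cdc45, which starts replication forks with that helicase, rose from 18.8 to 45.8 CPM (1.28 ± 0.08). Of 19 inhibitors of the cell cycle and targets of p53 11 fell and 2 rose, with a median of -0.68. Btg2, an antiproliferative p53 target, fell from 89.9 ± 6.47 to 39.1 ± 0.387 CPM (-1.20 ± 0.09), Trp53inp1 from 217 to 91 CPM (-1.25 ± 0.16) and Cdkn1b, the inhibitor p27, from 196 ± 20.9 to 135 ± 6.35 CPM (-0.54 ± 0.09). Mdm2, the brake on p53, was at 451, 564 and 1231 CPM in CIA and at 297, 255 and 311 CPM with luteolin (-1.38 ± 0.30, adjusted p = 0.00347). Of 8 histone genes tested, which belong to the replication-dependent kind except H1f0, none passed by edgeR or DESeq2, and 2 were lower at an unadjusted p of 0.05 (1 or 2 passed as lower under 5 alternatives, among them 1 without CIA library 1 and 2 without CIA library 3).

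Genes of glucose use and of respiration were taken as separate lists. Glycolysis genes fell in 13 of 22 cases with 1 higher (none higher without any single library other than CIA library 3, and 18 lower without CIA library 1), and their summed level was 5353 to 10612 CPM in CIA, 4263 to 5086 CPM with luteolin and 2187 to 2454 CPM in the libraries labelled control. The glucose transporter gene Slc2a3 was at 138, 200 and 258 CPM in CIA and at 54, 58.6 and 57.5 CPM with luteolin (-1.81 ± 0.18, adjusted p = 2.13e-05). Pkm, pyruvate kinase, was at 1702, 2297 and 3775 CPM against 1382, 1146 and 1486 CPM (-0.95 ± 0.23, adjusted p = 0.00625). The groups did not overlap in either, and CIA library 3 was the highest in both. The lactate exporter gene Slc16a3 fell from 95.2 to 36.7 CPM (-1.37 ± 0.22) and the phosphofructokinase gene Pfkp from 425 to 196 CPM (-1.11 ± 0.13). Hypoxia response genes fell in 13 of 24 cases and rose in 3 (6 without CIA library 3). Egln3, the oxygen sensor that hypoxia induces, fell from 47.5 ± 13.8 to 11.7 ± 1.14 CPM (-2.02 ± 0.25), and Ankrd37 from 48.7 ± 15.2 to 7.48 ± 0.771 CPM (-2.70 ± 0.20, with 26.4% of exonic bases shared). Hif1a itself was at 548 ± 105 and 653 ± 32.2 CPM and did not pass (0.25 ± 0.12, adjusted p = 0.108; 0.37, past the threshold, without CIA library 3).

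Nuclear genes of oxidative phosphorylation rose in 58 of 62 cases with none lower, a share of 93.5%, but by small amounts, with a median of 0.60. Cox7b, a subunit of cytochrome oxidase, was at 46.1, 42.4 and 36.5 CPM in CIA and at 95.4, 93.1 and 99.8 CPM with luteolin (1.20 ± 0.09, adjusted p = 3.43e-06). Uqcrb, of the cytochrome bc1 complex, rose from 83.7 ± 6.51 to 172 ± 13.5 CPM (1.04 ± 0.09), and Sdhc, of succinate dehydrogenase, from 14.4 to 28.5 CPM (0.99 ± 0.11). Mitochondrially encoded genes did not follow, with 3 of 9 higher and 3 lower; the higher count was 6 without CIA library 1 and 0 without CIA library 2 or treated library 1. Cytosolic ribosomal proteins mostly did not pass, 2 of 55 higher and 6 lower, and this count was also unstable, with 20 and 5 without CIA library 1, 2 and 10 without CIA library 3, 1 higher without CIA library 2 or treated library 1 or 2, and 4 to 10 higher under 6 other settings. Ribosome biogenesis genes rose in 13 of 34 cases and fell in 4 (21 rose without CIA library 1 and 8 without CIA library 2 or treated library 1). Nhp2, of the ribonucleoprotein that modifies ribosomal RNA, rose from 24.2 to 37.5 CPM (0.63 ± 0.09).

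Cholesterol synthesis genes rose in 13 of 24 cases and fell in 1 (2 without CIA library 1 or 3), with Fdps, which makes the isoprenoid precursor, up from 29.8 ± 1.08 to 69.5 ± 3.33 CPM (1.22 ± 0.09). Heme synthesis and iron genes rose in 6 of 20 cases and fell in 2 (4 without CIA library 1, and 1 without CIA library 2 or treated library 1 or 3). The shares were 30% and 10%, beside 23.1% and 24.2% of all genes tested. Alas1, the first enzyme of heme synthesis, was up from 79.3 to 197 CPM (1.32 ± 0.14). In the unfolded protein response list 12 of 22 genes were higher and 3 lower, with a median of 0.61 (6 lower without CIA library 1 or without a filter, and 1 without treated library 2 or 3 or in a fit of the 6 libraries alone). Calr, the calcium-binding chaperone calreticulin, was at 950, 838 and 1132 CPM in CIA and at 2477, 2160 and 2359 CPM with luteolin (1.26 ± 0.10, adjusted p = 5.91e-06). Hsp90b1, the chaperone GRP94, was at 1892, 1758 and 1800 CPM against 3803, 3645 and 3701 CPM (1.03 ± 0.07, adjusted p = 1.24e-06). Treated libraries were above CIA for both, with no overlap. Sdf2l1, a partner of the chaperone BiP, rose from 3.77 ± 0.463 to 15 ± 0.569 CPM (1.99 ± 0.12). The stress factor gene Ddit3 was at 289 ± 95.1 and 227 ± 13.1 CPM and did not pass (-0.35 ± 0.19; -0.54, past the threshold, without CIA library 1). Heat shock chaperones rose in 4 of 15 cases and fell in 1 (2 without CIA library 1). The shares were 26.7% and 6.67%, beside 23.1% and 24.2% of all genes tested. Hspa8 was up from 1249 to 2319 CPM (0.89 ± 0.07) and Hsph1 down from 442 to 192 CPM (-1.21 ± 0.15).

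Signalling pathways that flavones have been described to act on were taken next. NF-kB factors and feedback genes rose in 10 of 24 cases and fell in 7, with a median of 0. Rela, the main activating subunit, was at 90.8, 103 and 106 CPM in CIA and at 69.7, 67 and 67.3 CPM with luteolin (-0.55 ± 0.08, adjusted p = 0.000398), and Relb, the subunit of the alternative pathway, was at 26.4, 26.5 and 27.1 CPM against 47.4, 50.7 and 45.4 CPM (0.84 ± 0.08, adjusted p = 2.1e-05). Nfkbiz, a nuclear coactivator of secondary inflammatory genes, was at 137, 204 and 358 CPM against 45.5, 47 and 48.7 CPM (-2.31 ± 0.27, adjusted p = 7.3e-05). No library of one group reached into the other for these 3 genes. Among the risers were 3 near-identical survival genes, Bcl2a1a, Bcl2a1b and Bcl2a1d, whose reads the counting could split and whose separate values are uncertain. Immediate early and AP-1 genes fell in 12 of 26 cases and rose in 5, with a median of -0.40. Fosl1 fell from 38.2 ± 16.3 to 6.91 ± 0.992 CPM (-2.47 ± 0.26, with 57.2% of exonic bases shared) and Jund from 46.3 ± 2.74 to 16.3 ± 1.7 CPM (-1.51 ± 0.11, with 52.6% shared), while Batf3, the factor of cross-presenting dendritic cells, rose from 1.12 to 9.99 CPM (3.16 ± 0.29) and Fos from 9.75 ± 1.07 to 19.3 ± 0.202 CPM (0.99 ± 0.21).

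In the list of IL-6 family and STAT3 signalling 6 of 21 genes rose and 6 fell, with a median of -0.10. Each share was 28.6%, near the 23.1% and 24.2% of all genes tested. Stat3 was at 225, 234 and 244 CPM in CIA and 216, 222 and 227 CPM with luteolin and did not pass (-0.08 ± 0.08, adjusted p = 0.438). Its upstream kinase gene Jak1 was at 597, 644 and 659 CPM against 415, 421 and 418 CPM (-0.60 ± 0.06, adjusted p = 3.88e-05). Socs2, of a family of inhibitors of cytokine signalling, was at 2.08, 1.76 and 2.61 CPM against 11.6, 13 and 11.2 CPM (2.48 ± 0.20, adjusted p = 4.66e-06). Jak1 was lower and Socs2 higher in all treated libraries, whereas the libraries overlapped for Stat3. Which pathway Socs2 limits in these cells was not tested. NRF2 and antioxidant genes fell in 9 of 24 cases and rose in 4 (15 and 4 without CIA library 1, 9 and 7 without CIA library 3, 14 and 5 without a filter), with a median of -0.36. Changes ran from -1.84 to 2.28, with 5 members at least 2-fold lower and 2 at least 2-fold higher, so the fallers named next do not stand for the whole list. Nqo1, a quinone reductase and classical target, was at 12.9, 19.6 and 24.7 CPM in CIA and at 5.2, 4.88 and 5.91 CPM with luteolin (-1.84 ± 0.23, adjusted p = 0.000105). Gclc and Gclm, the subunits of the enzyme that limits glutathione synthesis, fell from 144 ± 62.5 to 61.4 ± 6.7 CPM (-1.23 ± 0.25) and from 132 ± 47.1 to 63.6 ± 6.4 CPM (-1.05 ± 0.20). Nfe2l2, which encodes NRF2 itself, was at 143, 168 and 235 CPM against 140, 145 and 153 CPM, so the groups overlapped, and it did not pass (-0.32 ± 0.15, adjusted p = 0.0925; -0.48, past the threshold, without CIA library 1). Of 10 genes of the aryl hydrocarbon receptor list 5 rose and 4 fell. The receptor gene Ahr fell, as given above, and its repressor gene Ahrr rose from 2.73 ± 0.141 to 9.69 ± 0.684 CPM (1.82 ± 0.25). Tiparp, a feedback target, fell from 68.2 ± 12 to 40.8 ± 1.27 CPM (-0.74 ± 0.16). Cyp1a1, the classical target, was at 0.116 ± 0.0925 and 0.169 ± 0.0613 CPM and was left out by the filter on low counts, as were Cyp1b1 and Aldh3a1. Cyp1b1, a related oxidase gene, was at 0.0556, 0.0585 and 0 CPM in CIA and at 0.237, 0.151 and 0.861 CPM with luteolin. Aldh3a1, an aldehyde dehydrogenase gene, was at 0.0556, 0 and 0.132 CPM against 0.38, 0.352 and 0.267 CPM. In the fit without a filter both were called higher (adjusted p = 0.000411 and 0.0243) and Cyp1a1 was not (adjusted p = 0.672), on at most 4 counts in a CIA library for Cyp1b1 and Aldh3a1. Apoptosis regulators rose in 7 of 23 cases and fell in 8, shares of 30.4% and 34.8% beside 23.1% and 24.2% of all genes tested. Bak1, a pore former of mitochondria, rose from 16.4 to 39.2 CPM (1.26 ± 0.10, with 25.5% of exonic bases shared).

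**Figure D4:**
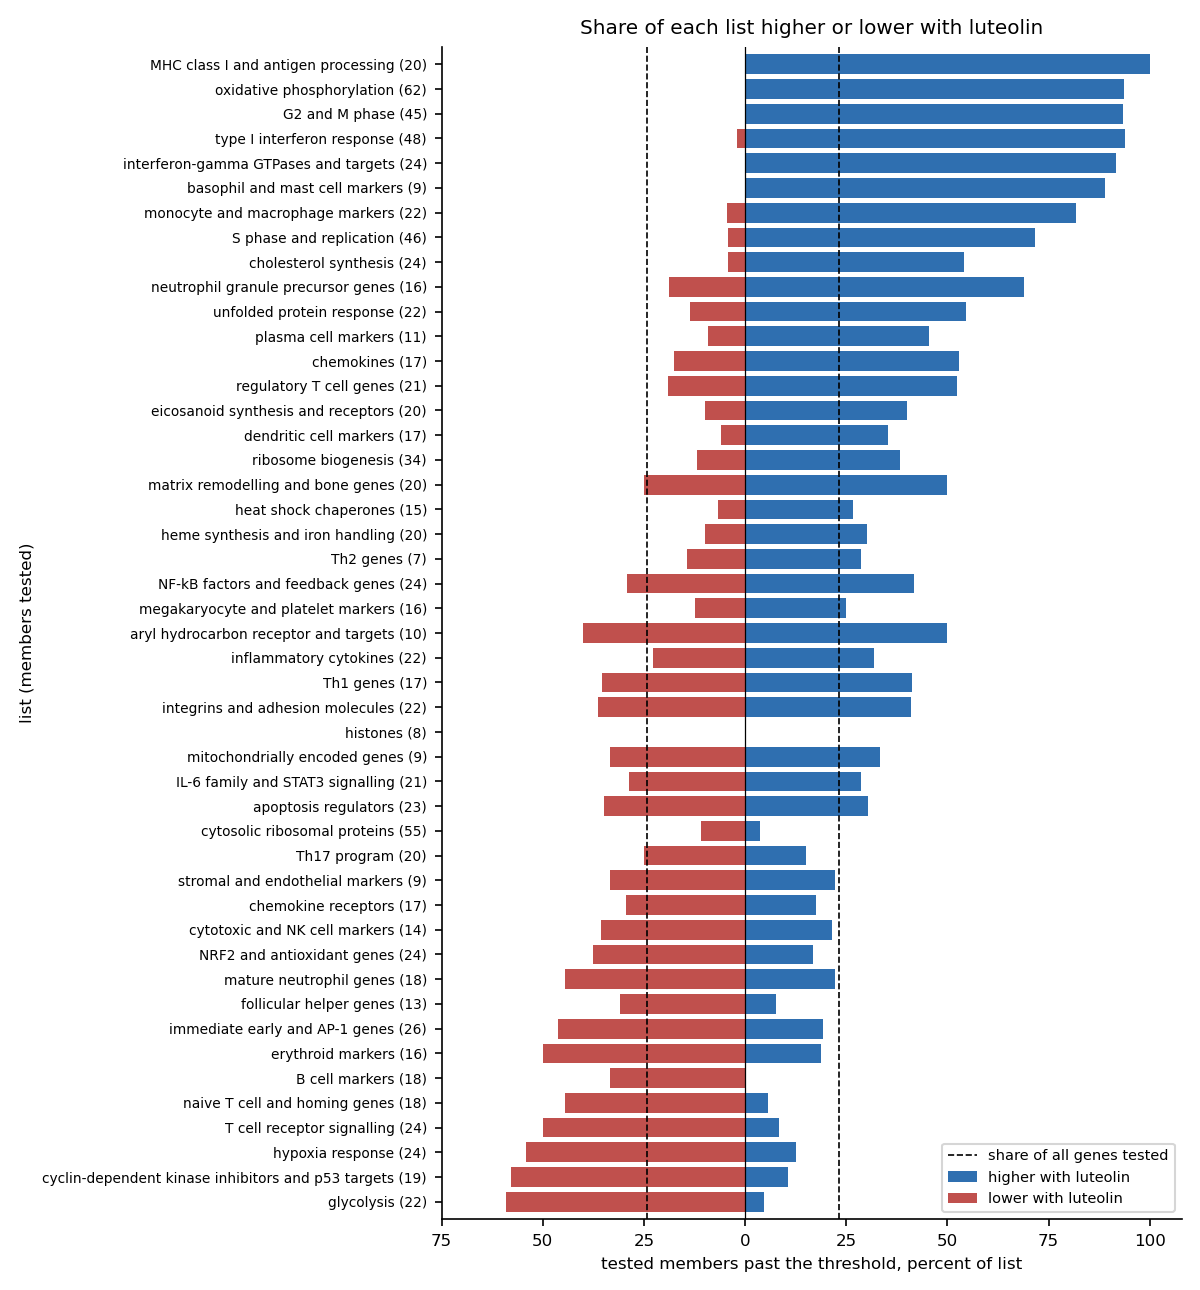
Share of the tested members of each of the 47 lists (vertical axis, members tested in brackets) that were higher (blue, to the right) or lower (red, to the left) with luteolin at an adjusted p of 0.05, in percent (horizontal axis); dashed lines mark the shares of all genes tested, 23.1% and 24.2%. MHC class I, oxidative phosphorylation, G2 and M phase and both interferon lists have over 90% of members higher, and glycolysis, with 59.1% lower, stands at the other end.

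The largest changes were taken by fold and then by abundance. Among genes that averaged 5 CPM or more and had no overlap between the groups, the 12 largest rises were Siglec1, Mpo, H2-M2, Elane, Ifi205, Mrc1, Mertk, Fcnb, Marco, Ly6i, Stra6l and Vcam1, most of them members of the macrophage or precursor granule lists. Ifi205, of the interferon-inducible p200 family, was at 0.612, 0.38 and 0.463 CPM in CIA and at 47.1, 42.6 and 41.7 CPM with luteolin (6.48 ± 0.17, adjusted p = 8.72e-09). H2-M2, a nonclassical class I gene, was at 0.167, 0.0293 and 0.0662 CPM against 14.6, 11.2 and 13.3 CPM (7.13 ± 0.28; 8.02 without CIA library 1). Each was close to 0 in CIA. In the libraries labelled control Ifi205 had a mean of 8.72 CPM and H2-M2 of 13.4 CPM. The 12 largest falls were Calr4, Spp1, Myl2, Csf3, Il23a, Tinagl1, Itih5, Stfa2, Tal2, Col5a1, Ptgs2 and Sostdc1. Calr4, a calreticulin paralog, was at 8.12, 17.1 and 25.5 CPM in CIA and at 0.593, 0.352 and 0.505 CPM with luteolin (-5.11 ± 0.48, adjusted p = 1.51e-05), opposite to Calr. The collagen gene Col5a1 fell from 37.7 ± 20.4 to 4.58 ± 1.65 CPM (-3.04 ± 0.38) and Tal2, a transcription factor gene, from 17.2 ± 12.5 to 1.95 ± 1.19 CPM (-3.15 ± 0.57; -2.39 without CIA library 3).

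By the size of the shift in CPM, the largest rises were in Ighm, Ngp, Hsp90b1, Ptma, Ctss, H2-K1, Calr, Hsp90ab1, Ncl and Cybb. Ctss, a protease that prepares antigen for MHC class II, was at 310, 188 and 122 CPM in CIA and at 1977, 1788 and 1931 CPM with luteolin (3.20 ± 0.27, adjusted p = 8.27e-06). Cybb, the catalytic chain of the phagocyte oxidase, was at 326, 276 and 319 CPM against 1672, 1329 and 1743 CPM (2.37 ± 0.11, adjusted p = 1.32e-07). Which cells account for both rises was not tested. The largest falls in CPM were in Malat1, S100a9, Myh9, Ankrd11, Spp1, Pkm, Hnrnpu, Sqstm1, Cap1 and Cxcl2. Malat1, a nuclear noncoding RNA, was at 7859, 9295 and 12468 CPM in CIA and at 5600, 5922 and 5828 CPM with luteolin (-0.77 ± 0.13, adjusted p = 0.000942). Ankrd11, a chromatin regulator, was at 3902, 3938 and 4602 CPM against 2138, 2115 and 2235 CPM (-0.94 ± 0.07, adjusted p = 4.68e-06). Sqstm1, the autophagy receptor p62 and a target of NRF2, fell from 1959 ± 871 to 992 ± 59.1 CPM (-0.98 ± 0.23).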

How the data were processed

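Messenger RNA from mouse spleen cells labelled CD4+ T cells was sequenced as read pairs in 9 libraries, 3 per group. The deposited table holds raw counts, which the authors obtained with featureCounts (Subread 1.5.1) after Trimmomatic 0.36 and a mapper spelled STRA 2.5.3a, per the labels' protocols and the submitters' processing notes. The notes name mm39 and the protocol CHOK1GS. Strand setting and annotation release are not given in the sources used here. Low counts were mostly even (73.4% of values from 1 to 10, 52.8% of values from 201 to 1000), which leaves fewer independent fragments than counts if mates were counted separately.

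All 9 libraries were fitted with edgeR 4.0.16 in R 4.3.3, with a term per group, filterByExpr and TMM factors of 0.950 to 1.018. Luteolin and CIA were compared by a 2-sided quasi-likelihood test, adjusted by Benjamini-Hochberg over 19348 genes, with a threshold of 0.05. The libraries labelled control enter the filter on low counts, the TMM factors and the estimate of spread, but not the contrast itself. A standard error is |log2 fold change| over the root of F. CPM values use the TMM factors, and RPKM also the length in the table. No 2 libraries of a group agreed within counting noise (chi-square per degree of freedom 5.507 or more), so each was kept. Deviations of same-numbered libraries correlated weakly in every pair, at 0.0065 to 0.1435. Across groups, libraries with different numbers gave -0.1769 to 0.092. The labels name nothing that same-numbered libraries share, so they were not treated as pairs.

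The 47 lists, the tests and the naming rule were chosen with earlier results of these data known. By that rule the text names the 12 largest rises and falls by fold (at least 5 CPM on average, no overlap), the 10 largest each way in CPM, the 4 smallest p-values of each list, 28 fixed helper and marker genes, and other list members where their list is described. Gene models without a name, pseudogenes and receptor segments were left out of the largest changes, and some genes under this rule are not reported here. Promoter windows, from 250 bases before to 50 after a start, came from RefSeq (GRCm38.p6) and matched 11772 tested genes by symbol. Alternatives were DESeq2 1.42.0, 3 other scalings, 2 other filters, a fit of 6 libraries, a replicate block, a minimum fold of 2 and the omission of each library. The edgeR test was tried on simulated counts with known changes, and the other procedures were not.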

Additional observations from a re-analysis of the deposited data

How the results depend on the processing

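The count of genes past the threshold stayed within 1.5 times of 9148 under 14 alternatives, from 7318 to 9809 when single libraries were left out. With a minimum fold of 2 it was 3658, of which 2038 were higher and 1620 lower. Scaling moved the balance: 4015 genes were higher and 5346 lower by upper-quartile scaling, against 4648 and 4275 by total counts. A fit of the 6 libraries alone gave 4255 and 3788, and DESeq2 4779 and 4742. With the replicate number as a block 4546 genes were higher and 4602 lower; deviations of same-numbered libraries correlated at 0.0065, 0.1435 and 0.122, and the labels tie them to no shared animal or day, so this is a check and no pairing. Of 2632 values recomputed for 188 genes named in the text, 2597 kept their direction and their side of the threshold, 8 lost the call, 18 gained one and 9 changed sign, none of these past the threshold in the fit reported. As single libraries were left out, the log2 fold change ran from -0.53 to 0.28 for Ciita, -0.051 to 0.15 for Ifi27, -0.67 to 0.60 for Ighd, -0.31 to 0.17 for Il1rn, -0.091 to 0.55 for Lyz2, -0.61 to 0.18 for Nos2 and -0.50 to 0.067 for Tnf, and Ighd was at 0.097 with the replicate block. Of 1316 counts of list members 1218 stayed within 1.5 times, and of 490 list medians of at least 0.2 in size 1 changed sign. Of the calls gained, 7 came without CIA library 1 and 4 without CIA library 3. Of the calls lost, 3 came without treated library 2, 2 in the fit of 6 libraries, and 1 each without CIA library 2, treated library 1 and treated library 3. Where an arm had a lone pair of libraries, its spread was taken from the pooled fit. For Il17a, with at most 2 counts in a library, a difference was not detectable at this depth.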

Other observations

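Among the antibody genes given here, which no list of the comparison holds, changes differed by gene. Other IgG genes and the lambda light chains are not reported here. Ighm, the constant region of IgM, was at 2394, 1866 and 1494 CPM in CIA and at 4345, 3690 and 4100 CPM with luteolin, with no overlap (log2 fold change 1.08 ± 0.14, edgeR adjusted p = 0.000146). Ighg2c, of an IgG class, was at 159, 149 and 151 CPM against 645, 617 and 638 CPM (2.05 ± 0.10, adjusted p = 1.62e-07). Igha, of IgA, rose from 17.3 ± 4.45 to 77 ± 6.64 CPM (2.16 ± 0.16), and Igkc, the kappa light chain, from 989 ± 31.9 to 1826 ± 110 CPM (0.88 ± 0.06). Ighd, which resting B cells carry, was at 74.7, 39.6 and 7.58 CPM in CIA and 33.1, 41.6 and 33.5 CPM with luteolin, inside the range of CIA, and did not pass (-0.18 ± 0.53, adjusted p = 0.811), though without CIA library 3 it was called lower (-0.67). Plasma cell markers had a summed level of 702 to 768 CPM in CIA and 862 to 936 CPM with luteolin, and B cell markers of 636 to 3340 and 888 to 1088 CPM. These genes were chosen after their values were seen.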
